A study of Mus musculus with 6 samples.

Results

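The Speer genes are a rodent family of multicopy genes named for the glutamate-rich proteins they encode. They are transcribed in male germ cells, mainly after meiosis, and their proteins resemble part of Dlg5, a scaffold protein of cell junctions. Because the copies arose by repeated duplication, several of them are still close to identical, and a short read often cannot be assigned to 1 of them. The 9 members described here are Speer2, Speer3, Speer4a, Speer4b, Speer4c, Speer4d, Speer4e, Speer4f1 and Speer5-ps1, out of 53700 genes counted. They were chosen by name, as a family in which a member varied strongly between libraries of the same group. That spread, and its relation to the share of reads outside genes on the counted strand, are therefore given below as descriptions without a test.

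The libraries were made from total RNA of whole testes, at postnatal day 45, of 3 mice with the genotype MSL3 WT (called WT) and 3 with the genotype MSL3 cKO, a conditional knockout of a floxed Msl3 allele (called cKO). All 6 mice carry the same strain label, Msl3em1Forni/C57BL/6J. The recombinase that would act on the floxed allele, and the cells in which it would act, are not given in the sources used here. The study asks whether loss of Msl3, an X-linked gene of a chromatin complex, affects spermatogenesis.

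Between 56991431 and 73766444 reads per library were assigned to genes. Msl3 itself, summed over its exons, had 829 to 1226 reads per library and its groups overlapped (log2 fold change -0.12, SE 0.088, edgeR adjusted p = 0.551), so that WT and cKO below mean libraries with those labels. Markers of the testis were present, with summed levels of 18117.6 to 22775.5 CPM (reads relative to the scaled library size) for 10 elongating spermatid genes and of 1561 to 1802 CPM for 9 round spermatid genes. The 4 epididymis markers summed to at most 0.240 CPM. In RNA of a whole organ, fewer cells of a type and less RNA per cell cannot be told apart.

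Of the members, 7 lie on chromosome 5, spread over 13.7 Mb. In the GRCm38 annotation of GENCODE M21 they are Speer3 (chr5:13791619-13796820, plus strand), Speer4e (chr5:14933221-14938429, minus), Speer4d (chr5:15619064-15623864, plus), Speer4c (chr5:15709501-15714271, minus), Speer4f1 (chr5:17476098-17480936, plus), Speer4a (chr5:26032846-26039558, minus) and Speer4b (chr5:27495639-27501438, minus, within the span of Dpp6 on the opposite strand). Speer2 lies apart at chr16:69856874-69863744 on the minus strand. Speer5-ps1, annotated as a transcribed processed pseudogene, lies at chr10:44169911-44219583 on the plus strand, and its exons overlap those of the pseudogene Gm18669 on the opposite strand. The other 8 members are annotated as protein coding. Exons of Speer4c overlap those of Speer4cos on the opposite strand.

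The longest transcripts of Speer4a to Speer4e were 91.2% to 98.5% identical over their aligned bases in 10 pairwise comparisons. Speer4f1 was 87.3% to 88.8% identical to these 5, and 98.9% identical to Speer4f2, which is not a member. Speer2 and Speer3 were 88.8% identical to each other and 74.2% to 78.8% identical to the Speer4 members. Speer5-ps1 stood furthest away, at 56.9% to 65.2%. A stretch of 75 coding bases, the length of a read, is shown because it illustrates which copies a read can separate; capitals mark bases that differ from Speer4d when the stretches are set side by side without gaps.
Speer4d: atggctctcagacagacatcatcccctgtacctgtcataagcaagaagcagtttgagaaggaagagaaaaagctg
Speer4b: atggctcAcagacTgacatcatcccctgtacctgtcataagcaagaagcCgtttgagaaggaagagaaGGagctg
Speer4a: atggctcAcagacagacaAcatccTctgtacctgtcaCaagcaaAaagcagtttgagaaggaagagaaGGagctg
Speer2: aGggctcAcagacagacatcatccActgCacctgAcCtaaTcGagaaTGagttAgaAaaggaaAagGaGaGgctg
Speer3: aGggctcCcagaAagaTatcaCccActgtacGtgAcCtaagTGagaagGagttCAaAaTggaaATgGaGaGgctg
Speer4c and Speer4e carry the same 75 bases as Speer4d, and 8 annotated genes beside Speer4d, these included, hold the stretch. Speer4b differs from it at 5 bases, Speer4a at 7, Speer2 at 16, Speer4f1 (not printed) at 19 and Speer3 at 21. Counted without gaps, these differences do not rank the copies by relatedness.

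Over whole transcripts, the part of each member that was shared with other annotated genes over 75 bases differed widely. Of the distinct 75-base windows in the transcripts of Speer4c, 83.8% also occurred in transcripts of other genes, on either strand, against 58.4% for Speer4d, 45.6% for Speer4e, 34.4% for Speer4f1, 30.8% for Speer4a and 16.9% for Speer4b. The share was 4.32% for Speer5-ps1 and 1.7% for Speer3, and no window of Speer2 recurred. For Speer5-ps1 the only sharing gene was Gm18669, whose exons overlap it on the opposite strand. Exons of Speer4c and Speer4cos overlap in the same way. A read from such an overlap can be assigned by its strand, so these shares are not all out of reach of a read. Speer4c shared windows with 25 genes and kept 181 windows of its own, whereas Speer2 had 1164. The count tables hold reads that map to a single place. The counts of Speer4c, Speer4d, Speer4e, Speer4f1 and Speer4a therefore leave out reads of windows shared with copies at other places. They are uncertain as measures of those genes. Unannotated copies in the genome were not analysed here. The share of multimapping reads was 6.10% to 6.75% over the libraries, and how many of these came from Speer copies was not tested.

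**Figure D1:**
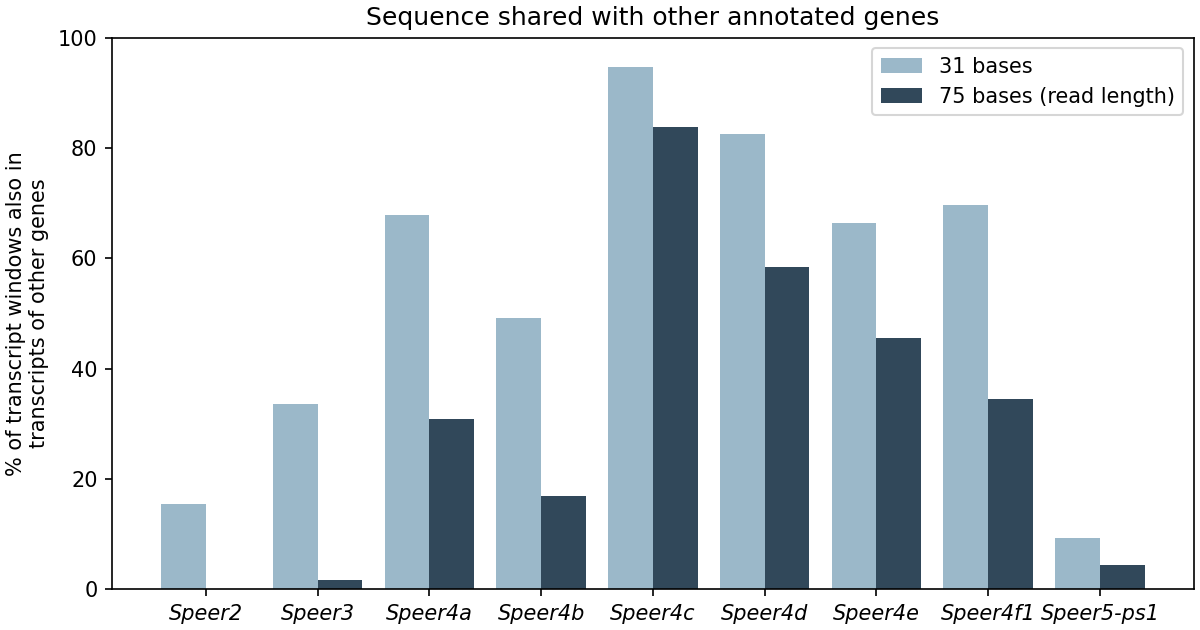
Bars give the percentage of distinct transcript windows of 31 bases (light) and of 75 bases (dark, the read length) of each member that also occur in transcripts of other genes of GENCODE M21, on either strand. Speer4c had the highest shares, 94.7% and 83.8%, and Speer2 had 15.5% and 0%.

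Promoter windows of RefSeq (GRCm38.p6; 250 bases before to 50 after each annotated start) were matched for 8 of the 9 members, Speer5-ps1 having none. The letters TGATGTCA, or TGACATCA on the other strand, occurred in 7 of these 8 windows, the exception being Speer2, and in 3.62% of all 32851 windows. They differ in 1 letter from TGACGTCA, the full cAMP response element that the spermatid activator CREM is known to bind, which occurred in 0 of the 8 windows and in 1.79% of all windows. The 7 windows come from related copies and are not independent, and a match is a description of the letters, not of a bound factor. The longest run shared exactly by the windows of Speer4a, Speer4b, Speer4c, Speer4d, Speer4e and Speer4f1 was 36 bases. The 50 bases around the element are shown for the copies that carry it on the gene's strand, with TGATGTCA in capitals, because they display how closely the copies match near their annotated starts.
Speer3, chr5:13791567-13791616, plus: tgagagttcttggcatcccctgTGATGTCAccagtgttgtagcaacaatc
Speer4a, chr5:26039526-26039575, minus: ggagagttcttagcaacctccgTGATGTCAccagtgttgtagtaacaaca
Speer4c, chr5:15714245-15714294, minus: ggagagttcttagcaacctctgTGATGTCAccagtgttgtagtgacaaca
Speer4d, chr5:15619041-15619090, plus: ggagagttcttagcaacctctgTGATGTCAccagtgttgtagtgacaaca
Speer4e, chr5:14938449-14938498, minus: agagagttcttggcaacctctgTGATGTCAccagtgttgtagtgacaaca
Speer4f1, chr5:17476035-17476084, plus: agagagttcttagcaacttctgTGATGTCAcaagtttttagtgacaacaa
Speer4b had the element on the other strand alone. CCAAT, on either strand, occurred in 7 of the 8 windows (37.4% of all windows) and TATAAA in 0 (13.6% of all windows).

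All 9 members had reads in every library, 22357 in all, and all 9 passed the filter on low counts. Speer2 supplied 69.9% of these reads. It had 2552, 2425 and 2535 reads in WT 1, 2 and 3 and 3172, 2603 and 2345 in cKO 1, 2 and 3. Per kilobase of exon, Speer2 had a level of 36.0 ± 2.74 reads per kilobase of exon on the CPM scale (RPKM, computed here; SD, n = 6). Speer4f1 followed at 1.92 ± 0.566 RPKM, Speer4b at 1.90 ± 0.243 and Speer3 at 1.72 ± 0.494 (SD, n = 6), and these 3 did not differ beyond their spread. Below them came Speer4e at 0.827 ± 0.161 RPKM, Speer4d at 0.643 ± 0.108, Speer5-ps1 at 0.531 ± 0.174, Speer4a at 0.481 ± 0.0837 and Speer4c at 0.301 ± 0.0527 (SD, n = 6), where mean ± SD overlapped in each neighbouring pair except Speer4a and Speer4c. This order depended on how much of each gene can be counted. When the reads were divided by the number of windows a gene holds alone, Speer4f1 stood at 3.10 CPM per 1000 windows and Speer2 at 36.0. Speer4c moved from the lowest place to 1.99, beside Speer3 at 1.87. Windows shared with Speer4cos on the opposite strand are not among those Speer4c holds alone, but reads there can be counted for it by strand. How far this raised its value was not tested, so its place above Speer3 is uncertain.

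**Figure D2:**
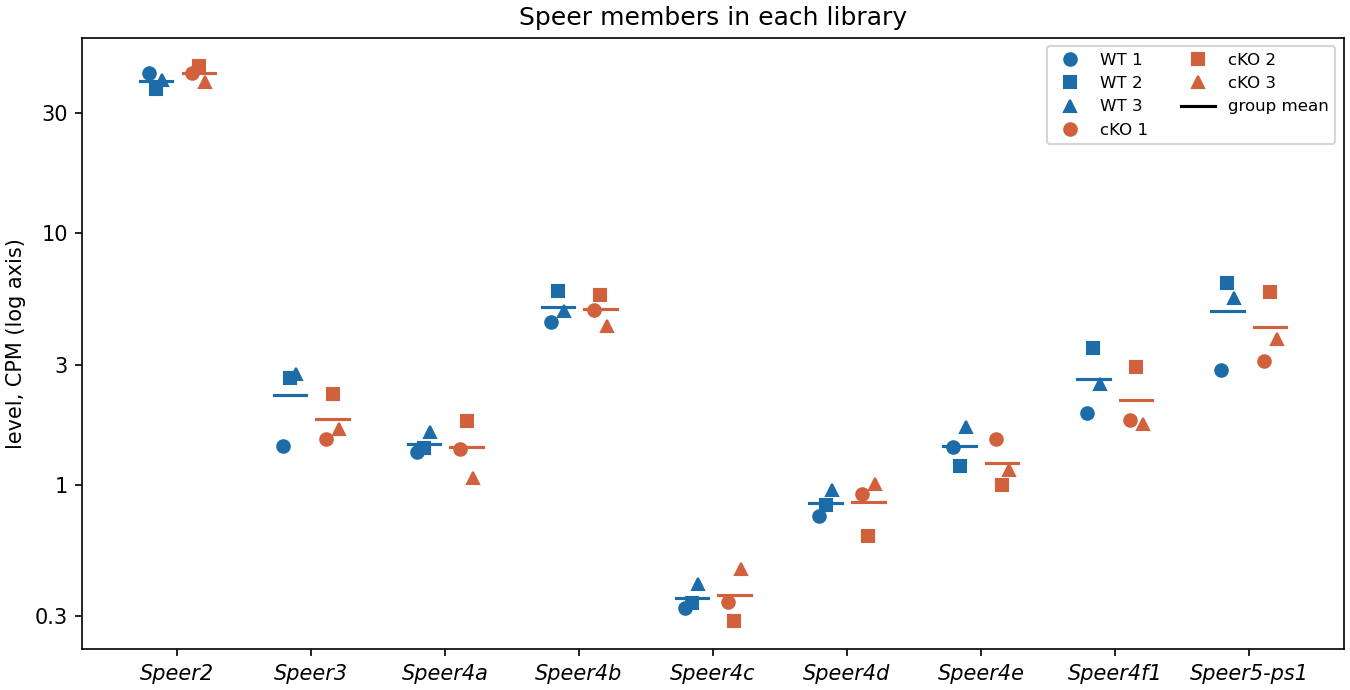
Points give the CPM of each member in each library on a log axis (WT blue, cKO orange; circle, square and triangle for replicates 1, 2 and 3), and lines give group means. Speer2 lies between 37.4 and 46.5 CPM and all other members lie at or below 6.33 CPM.

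Speer2, the member with most reads and no shared windows, was also the steadiest. Its level was 43.4, 37.4 and 40.8 CPM in WT 1, 2 and 3 and 43.5, 46.5 and 40.2 CPM in cKO 1, 2 and 3. The highest library was 1.25 times the lowest, and the groups overlapped. The mean was 40.5 ± 3.03 CPM in WT and 43.4 ± 3.18 CPM in cKO (SD, n = 3). The log2 fold change was 0.10 (SE 0.081, edgeR adjusted p = 0.611). The 95% interval of the ratio of cKO to WT ran from 0.948 to 1.21.

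Speer3, the nearest relative of Speer2 among the members by sequence, differed more between mice. It had 1.43, 2.65 and 2.75 CPM in WT and 1.52, 2.31 and 1.66 CPM in cKO 1, 2 and 3, from 84 to 172 reads. WT 2, WT 3 and cKO 2 were high, and the groups overlapped. The mean was 2.28 ± 0.736 CPM in WT and 1.83 ± 0.418 CPM in cKO (SD, n = 3). The log2 fold change was -0.33 (SE 0.24, edgeR adjusted p = 0.558). It ran from -0.57 without WT 1 to -0.18 without WT 3.

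Speer5-ps1, the pseudogene on chromosome 10, had the widest spread. It had 168, 411 and 343 reads in WT and 227, 328 and 222 in cKO 1, 2 and 3, or 2.86, 6.33 and 5.52 CPM and 3.11, 5.86 and 3.80 CPM. The highest WT library was 2.22 times the lowest, and the highest cKO library 1.88 times the lowest. The same 3 libraries as for Speer3 were high, and the groups overlapped. The mean was 4.90 ± 1.82 CPM in WT and 4.26 ± 1.43 CPM in cKO (SD, n = 3), with a log2 fold change of -0.22 (SE 0.27, edgeR adjusted p = 0.76) and a 95% interval of the ratio from 0.573 to 1.29. Without WT replicate 2 the log2 fold change was 0.01. Of the strand-assigned reads of Speer5-ps1, 72.9% were on the expected strand, the others lying on the strand of Gm18669.

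Speer4f1, the most distant of the Speer4 members, showed the same high libraries. Its levels were 1.92, 3.50 and 2.51 CPM in WT and 1.81, 2.95 and 1.75 CPM in cKO 1, 2 and 3. The highest library, WT 2, was 2.00 times the lowest, cKO 3, and the groups overlapped. The mean was 2.64 ± 0.796 CPM in WT and 2.17 ± 0.677 CPM in cKO (SD, n = 3). The log2 fold change was -0.30 (SE 0.24, edgeR adjusted p = 0.598). It was -0.04 without WT 2 and -0.57 without cKO 2.

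Speer4b, the copy within Dpp6, had 4.44, 5.89 and 4.92 CPM in WT and 4.98, 5.70 and 4.30 CPM in cKO 1, 2 and 3. The libraries highest in each group were again WT 2 and cKO 2, within a range of 1.37 times. Its log2 fold change was -0.03 (SE 0.14, edgeR adjusted p = 0.946). Speer4a, 95.7% identical to Speer4b, ranged from 1.06 CPM in cKO 3 to 1.79 CPM in cKO 2, with WT between 1.34 and 1.63 CPM. Its log2 fold change was -0.05 (SE 0.19, edgeR adjusted p = 0.934), and without cKO replicate 3 it was 0.11.

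Speer4c, Speer4d and Speer4e, which share the coding stretch printed above, did not follow that order of libraries. Each was lowest in cKO 2, the library in which Speer2 and Speer4a were highest. Speer4e had 1.41, 1.19 and 1.69 CPM in WT and 1.52, 1.00 and 1.15 CPM in cKO 1, 2 and 3. Speer4d had 0.749, 0.832 and 0.949 CPM in WT and 0.918, 0.626 and 1.01 CPM in cKO. The groups overlapped in all 3 genes, with log2 fold changes of -0.21 (SE 0.20) for Speer4e, 0.02 (SE 0.21) for Speer4d and 0.03 (SE 0.27) for Speer4c and edgeR adjusted p of 0.671, 0.978 and 0.969. For Speer4e it ran from -0.41 without cKO 1 to -0.08 without WT 3. Speer4c rested on 16 to 27 reads per library. Unstranded counting left it 71 reads of 134, since its exons overlap those of Speer4cos, and then gave a log2 fold change of -0.21.

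Of the 9 members, 0 passed an edgeR adjusted p of 0.05 over all 21902 genes tested, 0 had an unadjusted p under 0.05, and DESeq2 also called 0, with its adjusted p undefined for 8 of them. Among all genes tested, 0.0183% were called and 13.9% had an unadjusted p under 0.05. In 0 of 9 members were the groups free of overlap, a state found in 18.9% of all genes tested. The median log2 fold change was -0.05 over the members and 0.003 over all genes tested, with 3 members above 0 and 6 below. The summed level of the members was 59.5 ± 1.63 CPM in WT and 60.5 ± 5.97 CPM in cKO (SD, n = 3). Without Speer2 it was 19.0 ± 4.01 CPM in WT and 17.1 ± 2.96 CPM in cKO, a log2 ratio of -0.15 against 0.02 with it. A p that misses the threshold does not show that the groups were alike: the 95% intervals reach from -0.84 to 0.62 on the log2 scale.

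**Figure D3:**
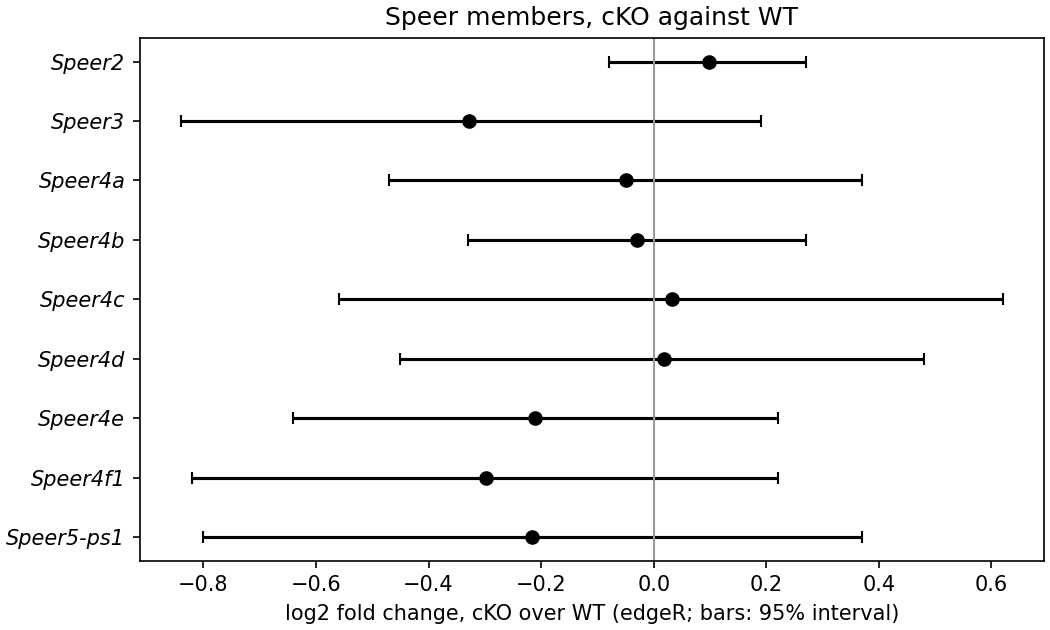
Points give the log2 fold change of cKO over WT for each member from the edgeR fit over all genes, and bars give 95% intervals. The interval is narrowest for Speer2, from -0.08 to 0.27, and includes 0 in all 9 members.

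The spread between mice of the same group, for which the family was chosen, was uneven over its members. The SD of log2 CPM within groups was 0.54 for Speer5-ps1, 0.43 for Speer3 and 0.42 for Speer4f1. Among tested genes within 0.5 log2 units of the same level, 99.5%, 96.6% and 96.8% had a smaller SD than these members. Counting error alone would give an SD of 0.09, 0.13 and 0.12 for them. Speer2 was at 0.11 and Speer4b at 0.20, with 66.1% and 83.1% of like genes below. Speer4c, at 0.25, lay below the 0.31 that counting error gives, so that no spread between mice was detectable for it at this depth.

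**Figure D4:**
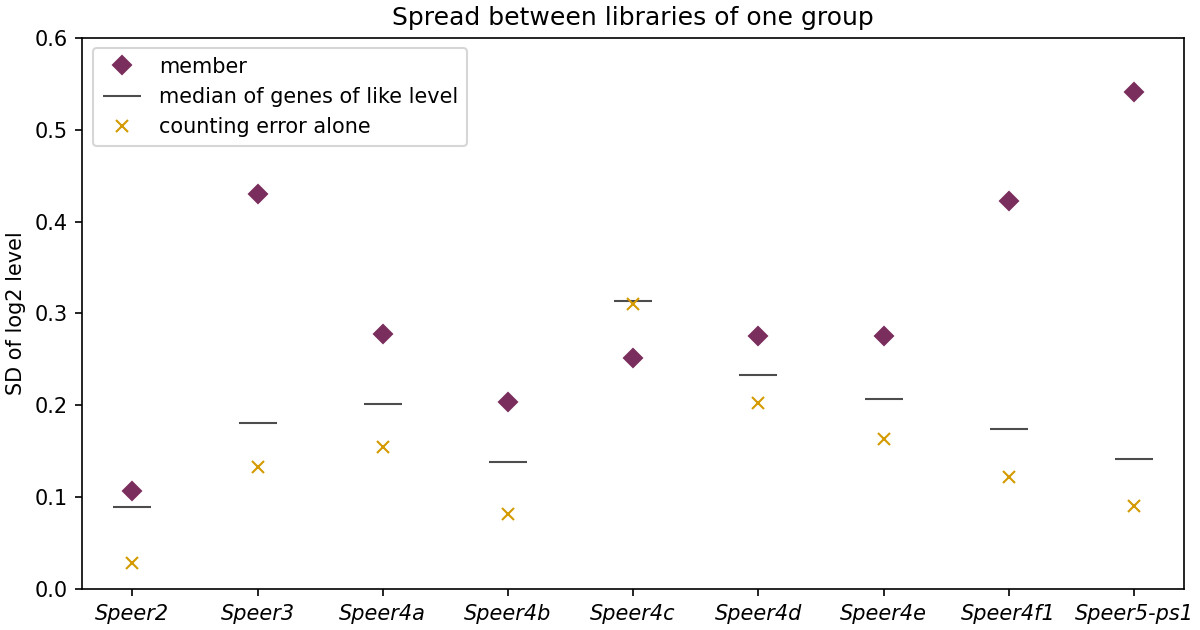
Diamonds give the SD of log2 CPM within groups (pooled over WT and cKO) for each member, dashes the median over tested genes of like level, and crosses the SD that counting error alone would give. Speer5-ps1, Speer3 and Speer4f1 stand at 0.54, 0.43 and 0.42, against medians of 0.14, 0.18 and 0.17.

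Reads outside genes, as counted here, have no annotated gene on the counted strand. They can include reads on the other strand of a gene, a part that was not tested. They made up 6.08%, 6.65% and 6.94% of all reads in WT 3, WT 2 and cKO 2, and 4.98% to 5.85% in WT 1, cKO 1 and cKO 3. The former 3 libraries were all above the latter 3 in Speer3, Speer4a, Speer4f1 and Speer5-ps1, 4 of the 9 members, and all below them in 0. Over all genes tested, 8.82% were higher in this way and 8.03% lower. The relation was used to choose the family, so nothing is read from these counts. The mean over the former libraries was 1.81 times that over the latter for Speer5-ps1, 1.67 times for Speer3, 1.64 times for Speer4f1 and 0.981 times for Speer2. With group held fixed, the log2 level rose per percentage point of reads outside genes by 0.58 for Speer5-ps1, 0.44 for Speer4f1 and 0.42 for Speer3, against a median of 0.009 over all genes tested, of which the middle 90% lay between -0.18 and 0.34. Speer4e had a slope of -0.21, although its highest level was in WT 3, 1 of the former libraries, and Speer2 had -0.02. The shares did not separate the groups, with 5.90% ± 0.849 in WT and 5.94% ± 0.951 in cKO (SD, n = 3), and with the share as a covariate the log2 fold changes of Speer5-ps1, Speer3 and Speer4f1 were -0.22, -0.32 and -0.30, with edgeR adjusted p of 0.269, 0.227 and 0.219.

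**Figure D5:**
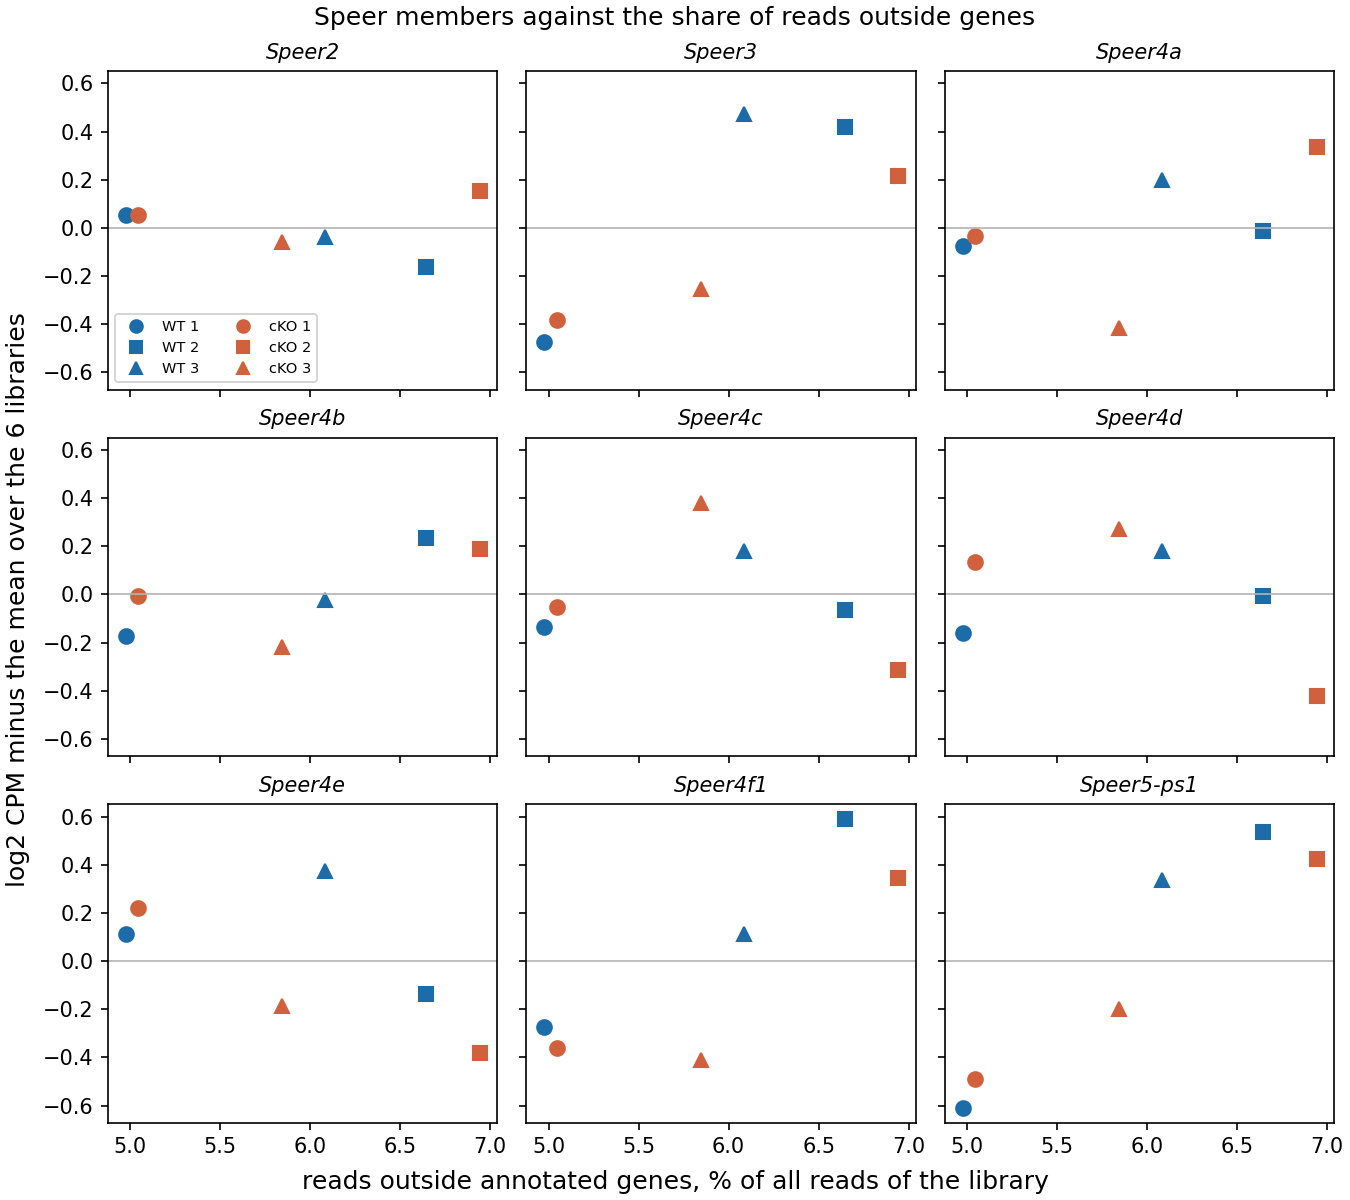
Each panel plots the log2 CPM of a member, minus its mean over the 6 libraries. The horizontal axis gives the percentage of reads outside annotated genes on the counted strand in the library. WT is blue and cKO orange, with circle, square and triangle for replicates 1, 2 and 3. Speer3, Speer4f1 and Speer5-ps1 are high in the 3 libraries at 6.08% and above, Speer2 has the narrowest range, and Speer4e follows no single order, being highest in WT 3 (6.08%) and lowest in cKO 2 (6.94%).

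Levels of spermatid markers are given beside this spread. The summed level of the 9 round spermatid markers differed by 1.15 times between the highest and lowest library, at 1747 to 1802 CPM in WT and 1561 to 1698 CPM in cKO, and that of the 10 elongating spermatid markers by 1.26 times, at 20578.5 to 22775.5 CPM in WT and 18117.6 to 21634.3 CPM in cKO. Their single genes, all at higher levels than every member but Speer2, had SDs of log2 CPM within groups of 0.02 to 0.12 and of 0.06 to 0.19. No marker of either list was at 0. Of the 3 libraries in which Speer3, Speer4f1 and Speer5-ps1 were high, WT 2 and WT 3 had the highest sums of round spermatid markers, 1802 and 1781 CPM, and cKO 2 had the lowest, 1561 CPM. The sum of elongating spermatid markers was highest in WT 3 (22775.5 CPM), lowest in cKO 2 (18117.6 CPM) and 20578.5 CPM in WT 2. The part of cell composition in the spread of the Speer genes was not tested.

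The annotation holds 5 further genes named Speer, all of which passed the filter. Speer4f2, near-identical to Speer4f1, had 1.77, 3.34 and 3.81 CPM in WT and 2.36, 3.07 and 2.19 CPM in cKO 1, 2 and 3. Speer6-ps1, a pseudogene on chromosome 13, ranged from 0.442 to 1.14 CPM, highest in cKO 2. In both, WT 2, WT 3 and cKO 2 were above the other 3 libraries, a state found in 8.82% of all genes tested, and nothing is read from it. Speer1 had 6.35, 5.95 and 5.76 CPM in WT and 5.09, 5.00 and 5.27 CPM in cKO 1, 2 and 3. Its groups did not overlap, and 83.6% of its 75-base windows occurred in other genes. cKO stood at -0.23 against WT on the log2 scale (SE 0.098, edgeR adjusted p = 0.33). Speer9-ps1 also had groups without overlap (log2 fold change -0.26, SE 0.13, edgeR adjusted p = 0.398). Groups without overlap were thus found in 2 of the 5 genes, against 18.9% of all genes tested. Of the 5 genes 0 were called and 1 had an unadjusted p under 0.05, against 13.9% of all genes tested. Speer4cos rested on 5 to 19 reads per library, and 54.9% of its strand-assigned reads were on the expected strand, the others lying on the strand of Speer4c. Dlg5, the gene whose protein the family resembles, had 7.72 to 9.77 CPM, and its groups overlapped (edgeR adjusted p = 0.697).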

How the data were processed

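Each library had a deposited table of raw counts per gene, in the layout of the aligner STAR; STAR, HTSeq, DESeq2 and the build mm10 are named per the submitters' processing notes, with no versions, and the annotation and read filters are not given in the sources used here. The counts of reads on the opposite strand (96.0% to 96.2% of strand-assigned reads) were used. The 4 summary lines of each table (unmapped, multimapping, outside genes on the counted strand, ambiguous) made up 14.8% to 16.7% of each library's reads. They stayed out of library sizes and tests.

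Symbols, exons and transcripts came from GENCODE M21 (GRCm38, the same assembly as mm10), which matched 52093 of 53700 identifiers. edgeR 4.0.16 (R 4.3.3) was fitted to all genes passing filterByExpr (minimum count 10) with trimmed mean of M values (TMM) scaling, and its quasi-likelihood test of cKO against WT was adjusted by Benjamini-Hochberg over 21902 genes, threshold 0.05. CPM use TMM-scaled library sizes. The log2 CPM behind SDs have a prior count of 2. On simulated counts (21662 genes tested, 200 changed by 1 on the log2 scale, cKO against WT) 82.7% of the changes were recovered. The changed genes were drawn from all tested genes, and noise was simulated independently for each gene. The share is therefore no measure of the power for the members.

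The members, lists and the naming rule (the 9 members, other genes named Speer, Dlg5 and the 5 genes most like a member) were chosen with earlier results of these data known; genes sharing 75-base windows were added after the counts were seen. The labels call the replicates biological. Alternatives were other scalings, other filters, unstranded counts, a replicate block, the outside-gene share as a covariate, leaving out each library, the sum without Speer2, and DESeq2 1.42.0.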

Additional observations from a re-analysis of the deposited data

How the results depend on the processing

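In 0 of 14 alternative settings was a member called (DESeq2 gave an adjusted p for 1 of the 9), and the lowest edgeR adjusted p of a member was 0.143 (Speer3 without WT 1). Of 126 member fits under alternatives, 113 kept the direction. When libraries were left out in turn, the log2 fold change ran from -0.24 to 0.11 for Speer4a (above 0 without WT 3 or cKO 3), from -0.13 to 0.091 for Speer4b (above 0 without WT 2 or cKO 3) and from -0.51 to 0.011 for Speer5-ps1 (above 0 without WT 2). It ran from -0.16 to 0.17 for Speer4c (below 0 without WT 1, WT 2 or cKO 3) and from -0.11 to 0.19 for Speer4d (below 0 without WT 1, cKO 1 or cKO 3). Without a change of direction it ran from -0.57 to -0.18 for Speer3, from -0.57 to -0.04 for Speer4f1, from -0.41 to -0.08 for Speer4e and from 0.04 to 0.15 for Speer2. The other turns were those of Speer4c with unstranded counts (-0.21) and of Speer4d with library totals alone (-0.008). The cause was not tested.

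The log2 ratio of the summed level moved from 0.02 to -0.15 without the member with most reads, Speer2. Over all genes, the 4 calls became 757 without a filter on low counts, 209 with DESeq2, 44 when the outside-gene share entered as a covariate, 2 with unstranded counts and 1 to 628 without each library in turn. The highest of these counts were 628 without cKO 1 and 116 without WT 1, and the lowest, 1, came without WT 3 or cKO 2. Across genes, deviations from the group mean correlated at 0.35, 0.26 and -0.05 between libraries of equal number. For WT 1 and WT 2, but not WT 3, the cKO library of equal number correlated best. The share of reads outside genes was lowest in WT 1 and cKO 1 (4.98% and 5.05%) and highest in WT 2 and cKO 2 (6.65% and 6.94%). Replicate number and this share therefore cannot be told apart, and the labels do not say what the numbers stand for. The replicate block gave 49 calls over all genes and 0 among the members.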

Other observations

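Beyond the genes named Speer, 24 annotated genes shared at least 1 window of 75 bases with a member, 23 of them on chromosome 5. The remaining gene, Gm18669 with 998 reads, lies on chromosome 10, where its exons overlap those of Speer5-ps1 on the opposite strand. The 24 genes were chosen after the counts were seen, and most carry provisional Gm symbols. Windows shared between copies at different places make the counts of such copies uncertain. Together they had 8094 reads, and their mean levels ran from 0.0637 CPM to 4.06 CPM, the latter in Gm7361. Of the 20 that passed the filter, 0 were called and 1 had an unadjusted p under 0.05, against 13.9% of all genes tested. The 1 gene was Gm17019, with 95, 106 and 108 reads in WT 1, 2 and 3 and 82, 62 and 66 in cKO, a log2 fold change of -0.57 (SE 0.15, edgeR adjusted p = 0.276). Gm21847, which overlaps the span of Speer4d on the same strand without sharing exons, had 19, 5 and 20 reads in WT and 22, 3 and 24 in cKO, lowest in WT 2 and cKO 2. Only 41.3% of its strand-assigned reads were on the expected strand, and unstranded counting left it 10 reads of 93.

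By the naming rule, the genes whose log2 CPM over the 6 libraries was most like that of Speer5-ps1, out of 16824 with a mean of at least 1 CPM, were Gm21056, Thoc1, Gm4808, A930030B08Rik and A930024E05Rik, all with a Pearson correlation over 0.99. Of the candidates, 2.45% had a correlation over 0.9 with it, all measured in the same 6 libraries. Thoc1, a gene of the mRNA export complex THO, had an SD within groups of 0.11 against 0.54 for Speer5-ps1. For the summed level of the members they were Pnmal1, Gga3, Gm4900, Gm5207 and Xndc1, with correlations of 0.98 to 0.99. Of the candidates, 0.493% had a correlation over 0.9 with that sum. Speer2 made up 62.8% (WT 2) to 75% (WT 1) of the sum, which therefore mostly follows Speer2.

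Of 14 other multicopy spermatid genes, among them the Cypt genes and sex-linked families such as Sly and Slx, 13 had reads and 11 passed the filter. Of these 0 were called, 6 had an unadjusted p under 0.05, against 13.9% of all genes tested, and 6 had groups that did not overlap, against 18.9%. Their median log2 fold change was -0.28, with 10 below 0, beside -0.17 for the 9 round spermatid markers, of which 8 were below 0, and -0.08 for the 10 elongating spermatid markers, of which 6 were below 0. The part of cell composition in these values was not tested. The SD of the multicopy genes within groups ran from 0.09 to 0.62. Reads of these families may be shared between copies too, but the uniqueness of their windows was not analysed here.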
